A study of Mus musculus with 11 samples.

Results

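The mitochondrial ribosomal protein genes are 78 of the 56748 genes in the deposited count table. They are the protein-coding genes whose names begin with Mrpl or Mrps followed by a number, 49 of them Mrpl genes, named for the large subunit, and 29 Mrps genes, named for the small subunit. Of these, 77 had enough reads to be tested, and Mrpl53 had no count in any library. The libraries were made from polyA RNA of tailbud tissue microdissected from mouse embryos at embryonic day 8.5, with a stranded mRNA kit. There were 4 libraries of Fgfr1 FCSPG/FCSPG embryos, 3 of Fgfr1 FCPG/FCPG embryos and 4 of wild-type (WT) embryos. Both mutant lines carry point mutations in residues of the receptor FGFR1 at which its signalling effectors bind, and the study asked how transcription in early mesoderm depends on canonical FGF signalling. The labels give neither the strain background nor the number of embryos behind a library, so p-values measure the spread between these libraries. Libraries are named by the number in their column of the table.

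Mitochondria translate the few mRNAs of their own genome, which encode subunits of the respiratory chain and of ATP synthase, on a ribosome of their own. Its rRNAs are transcribed inside the organelle, whereas all of its proteins are encoded in the nucleus, made in the cytosol and imported. The large subunit forms peptide bonds and holds the exit tunnel, and the small subunit decodes the mRNA. Some of the proteins are relatives of bacterial ribosomal proteins and others are found only in mitochondria, and loss of many of them is lethal to the mouse embryo. Genes of this family are known as targets of the transcription factors NRF1, GABPA (an ETS factor) and YY1.

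Promoters were searched for a short core of each of these 3 motifs, and 3 of them are printed here because the genes, Mrpl57, Mrps21 and Mrps26, are among those with the larger differences between groups below and carry both an NRF1 and an ETS match in the stretch shown. Each runs from 120 bases before the annotated start to 30 after it, in RefSeq's GRCm38.p6 build, and capitals mark the motif matches. The Mrpl57 stretch lies at chr14:57826119-57826268 on the plus strand, the Mrps21 stretch at chr3:95871485-95871634 on the minus strand and the Mrps26 stretch at chr2:130563637-130563786 on the plus strand.
Mrpl57: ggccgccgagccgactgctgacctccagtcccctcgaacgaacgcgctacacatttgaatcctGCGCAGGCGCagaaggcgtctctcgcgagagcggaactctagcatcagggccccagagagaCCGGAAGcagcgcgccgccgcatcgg
Mrps21: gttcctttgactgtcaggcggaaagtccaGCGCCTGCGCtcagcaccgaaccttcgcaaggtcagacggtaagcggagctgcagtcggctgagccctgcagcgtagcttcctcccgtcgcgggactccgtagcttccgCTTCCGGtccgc
Mrps26: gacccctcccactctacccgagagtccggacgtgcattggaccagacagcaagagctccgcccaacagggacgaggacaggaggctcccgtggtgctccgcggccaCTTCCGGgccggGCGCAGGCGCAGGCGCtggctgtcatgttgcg

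A promoter of 250 bases before to 50 bases after the start was listed for 69 of the 78 genes, with 75 entries in all, and was searched on both strands. The NRF1 core, GCGCA and GCGC with any 1 base between them, occurred in 13 of the 69 (18.8%), against 10.5% of the 11671 tested genes with a promoter in the table. The ETS core CCGGAAG occurred in 26 (37.7%, against 18.6%). The YY1 core ATGGCGGC occurred in 12 (17.4%, against 5.09%). At least 1 of the 3 was found in 41 of the 69 genes (59.4%, against 30.2% of tested genes), and NRF1 and ETS cores occurred together in 4. The 3 cores do not overlap one another in the printed stretches, but 2 NRF1 matches overlap in Mrps26. ETS cores were present in 15 of the 43 Mrpl genes and 11 of the 26 Mrps genes with a promoter, and NRF1 cores in 10 and 3. The median log2 fold change in FCSPG against WT was 0.24 over the members with and 0.24 over those without an NRF1 core, and 0.25 with and 0.22 without an ETS core. With a YY1 core it was 0.13 over 11 members, against 0.26 over the 57 without.

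Total counts per library ranged from 16014698 to 25453070. The deposited counts per gene do not read the point mutations, and Fgfr1 itself stood at 162 to 248 CPM (counts scaled to library size) in FCSPG, 178 to 242 CPM in FCPG and 169 to 209 CPM in WT libraries. The 16 tailbud markers were detected in all groups, with a summed level of 1123 to 1883 CPM in FCSPG, 153 to 2009 CPM in FCPG and 1007 to 1621 CPM in WT libraries. The lowest sum belonged to FCPG library 45, which also had the highest sum of 20 visceral endoderm markers, 18264 CPM, against 877 to 4186 CPM in FCSPG and 185 to 1334 CPM in WT libraries. The other FCPG libraries had 1818 and 4768 CPM of these markers. Most values of FCPG comparisons below are therefore also given without library 45. Primitive blood markers summed to 111 to 435 CPM in FCSPG, 62.7 to 234 CPM in FCPG and 305 to 3325 CPM in WT libraries, with the highest sum in WT library 26. In whole tissue, fewer cells of a type and less RNA per cell cannot be told apart.

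As a family the genes were well expressed in the tailbud. Levels between genes are compared as the deposited FPKM, which divide by gene length. In WT libraries the 77 tested members had a median mean level of 21.5 FPKM, from 3.27 to 123, against 3.93 FPKM over all 16572 tested genes. The median was 25.7 FPKM for the Mrpl and 14.1 FPKM for the Mrps genes. The highest was Mrpl12, the stalk protein that recruits translation factors to the large subunit, with 164 ± 40.6 FPKM in FCSPG (SD, n = 4), 130.4 ± 21.3 FPKM in FCPG (n = 3) and 123 ± 19.2 FPKM in WT libraries (n = 4). Mrpl34 and Mrpl54 followed with 79.6 ± 7.53 and 79.3 ± 9.47 FPKM in WT libraries, which do not differ beyond their spread. Among the Mrps genes Mrps21 led with 63.2 ± 7.13 FPKM in WT libraries, ahead of Mrps28 with 45.5 ± 6.78 FPKM and Mrps7, an rRNA-binding protein of the small subunit head, with 40.6 ± 3.41 FPKM. The lowest Mrpl genes were Mrpl33 (3.27 ± 0.752 FPKM in WT), Mrpl48 (3.5 ± 0.403 FPKM) and Mrpl32 (7.96 ± 0.529 FPKM). The lowest Mrps genes were Mrps10, Mrps35 and Mrps30, at 5.59 ± 1.06, 6.39 ± 0.933 and 6.66 ± 0.25 FPKM in WT libraries. These orders depend on the deposited gene lengths. Before division by length, Mrps35 (8631 bases) averaged 55.5 ± 8.36 CPM in WT libraries and Mrps21 (739 bases) 47.0 ± 5.28 CPM.

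The median spread of the members between libraries was smaller in WT than in either mutant group, with no test of that difference. The SD of log2 CPM had a median over the members of 0.23 in FCSPG, 0.22 in FCPG and 0.14 in WT libraries, and over all tested genes it had one of 0.27, 0.37 and 0.25. In WT libraries it was largest for Mrpl33 (0.33), Mrps10 (0.27) and Mrpl23 (0.24). Mrpl53, at positions 83086021 to 83086920 of chromosome 6 in the deposited table (build mm39), had 0 counts in all 11 libraries, which at 3 counts a library allows 0.118 to 0.187 CPM of assigned reads, before scaling between libraries and for counting error only. Its coordinates overlap those of Gm42688 and Ccdc142os, and whether reads there went unassigned was not tested. In all, 41 members overlap another gene, 36 of them a gene on the opposite strand, and the counting is not stated to use strand, so their reads cannot be told apart from those of the partner. The 37 members that overlap no gene had medians close to those of the whole family in each comparison below, 0.24, 0.03 and 0.20 on the log2 scale in FCSPG against WT, FCPG against WT and FCSPG against FCPG. Among processed pseudogenes the highest count in a library was 170 for Mrpl48-ps, 36 for Mrpl27-ps and 32 for Mrpl23-ps1. Their share of the reads of the parent genes was not tested.

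**Figure D1:**
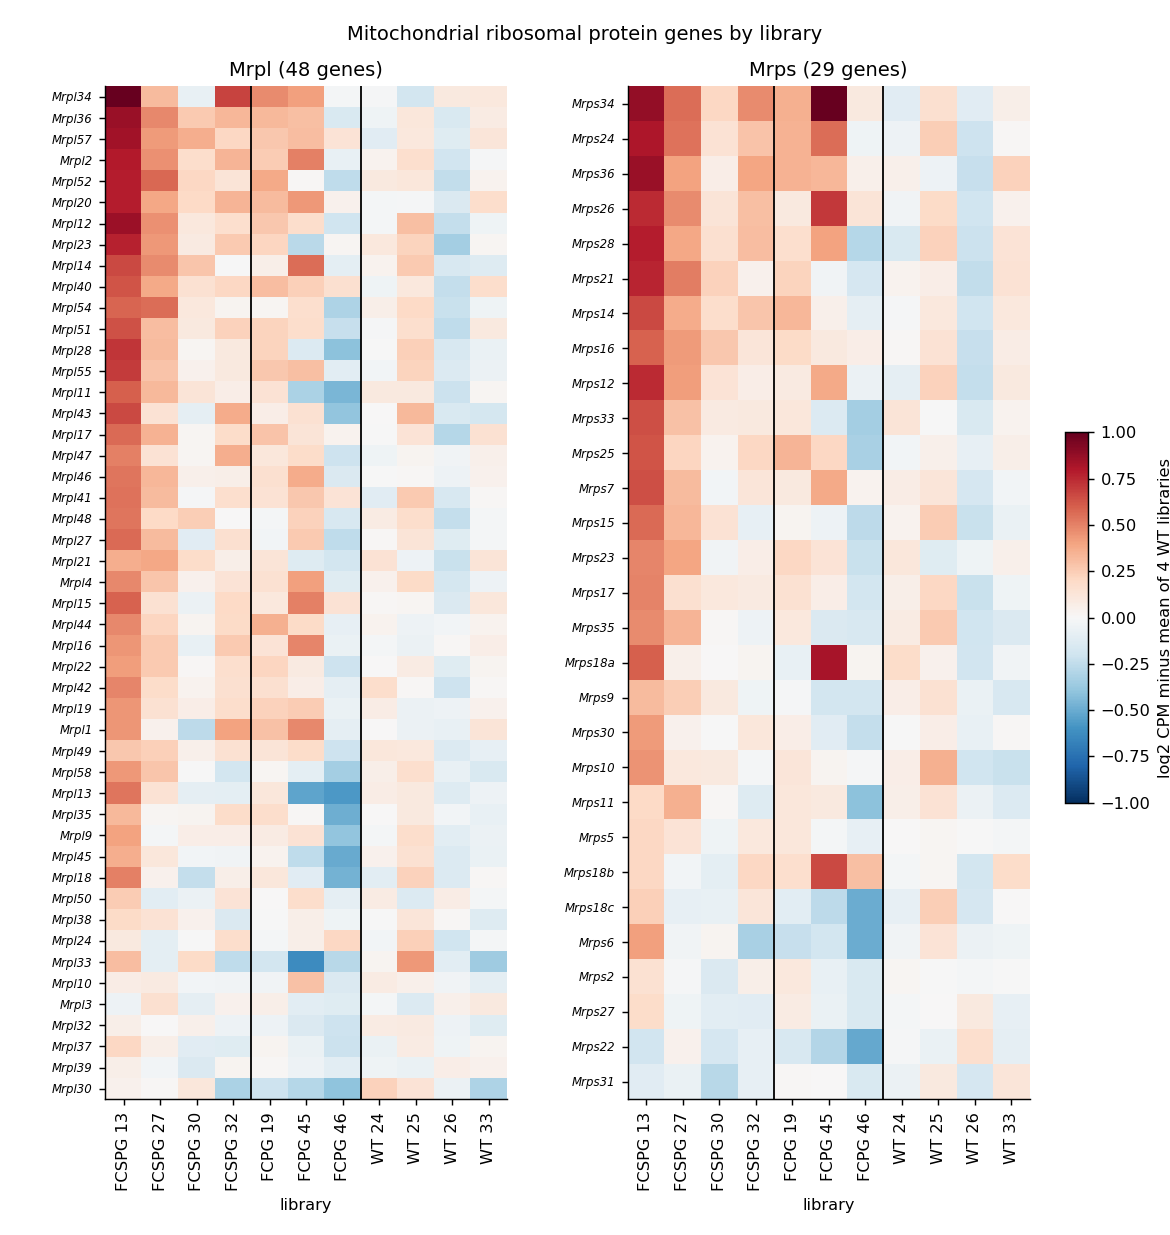
Heat map of the 48 Mrpl and 29 Mrps genes tested (down the page, ordered by their log2 fold change in FCSPG against WT) in the 11 libraries (across), coloured by log2 CPM minus the mean of the 4 WT libraries. FCSPG library 13 is the reddest column, with a median deviation of 0.50, and FCPG library 46 and WT library 26 are the bluest, with medians of -0.15 and -0.14.

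The fitted level of most of the family was higher in FCSPG than in WT, but the differences were small and no gene passed the test. Summed over the members, FCSPG libraries 13 and 27 had 5972 and 4997 CPM, against 3886 to 4561 CPM in WT libraries. FCSPG libraries 30 and 32 lay within that WT range, with 4341 and 4558 CPM. Of the 77 members, 72 (93.5%) had a higher fitted level in FCSPG, where 49.9% of all tested genes did, and 5 a lower one. The median log2 fold change was 0.24, a 1.18-fold difference, against -0.0006 over all tested genes, and single genes ranged from -0.14 to 0.54. By edgeR's quasi-likelihood test none of the 77 had an adjusted p under 0.05 (0% of all tested genes did), and the smallest adjusted p was 0.446. The count was also 0 by DESeq2, which called 0.247% of all tested genes, and by limma-voom. At an unadjusted p under 0.05, 17 members (22.1%) were higher and 0 lower in FCSPG, against 6.24% and 4.76% of all tested genes. In 8 members (10.4%) every FCSPG library lay above every WT library, against 4% of all tested genes, and in 0 members the groups separated the other way (3.35% of all tested genes). These 8 were Mrpl2, Mrpl20, Mrpl36, Mrpl46, Mrpl52, Mrpl57, Mrps14 and Mrps34.

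Values by library are in CPM, in the order 13, 27, 30 and 32 for FCSPG, 19, 45 and 46 for FCPG, and 24, 25, 26 and 33 for WT. Mrps34, a protein of the mitochondrial small subunit with no bacterial relative, lies on chromosome 17 at positions 25114090 to 25116476 (mm39). It had 40.4, 32.3, 25.3 and 30.5 CPM in FCSPG, against 20.3, 24.6, 20.3 and 22.9 CPM in WT libraries. All 4 FCSPG libraries were above the highest WT library, number 25, though library 30 only just, and the log2 fold change was 0.54 ± 0.21 (SE; edgeR adjusted p = 0.446). Mrpl20 (chromosome 4, 155887335 to 155894432), whose bacterial relative acts early in large subunit assembly, had 142, 108, 94.4 and 104 CPM in FCSPG, against 81.2, 81.8, 74.3 and 92.7 CPM in WT libraries. The groups did not overlap, and library 13 was well above the other 3 FCSPG libraries (log2 fold change 0.44 ± 0.14, edgeR adjusted p = 0.446). Mrpl36, a small zinc-binding protein of the large subunit (chromosome 13, 73476632 to 73480297), had 63.0, 48.1, 41.5 and 43.6 CPM in FCSPG, against 33.5, 37.3, 31.1 and 36.6 CPM in WT libraries. Again the groups did not overlap, and its log2 fold change was 0.50 ± 0.16 (edgeR adjusted p = 0.446). Mrpl57, a mitochondria-specific protein of the large subunit whose promoter is printed above (gene at chromosome 14, 58063691 to 58066753), had 50.2, 37.5, 36.0 and 32.3 CPM in FCSPG, against 25.9, 30.1, 25.8 and 30.5 CPM in WT libraries. FCSPG library 32 was close to the highest WT library, number 33, and the log2 fold change was 0.47 ± 0.15 (edgeR adjusted p = 0.446).

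Mrpl2, a protein near the peptide-forming centre, averaged 74.4 ± 14 CPM in FCSPG and 54.4 ± 5.49 CPM in WT libraries (SD, n = 4 each), without overlap. Mrps14, a protein of the small subunit head, averaged 51.3 ± 7.71 CPM in FCSPG and 39.4 ± 3.78 CPM in WT libraries, also without overlap. Mrpl34 had the largest difference among Mrpl genes, 1.45-fold, with 98.0, 60.4, 46.1 and 77.5 CPM in FCSPG, against 48.0, 42.6, 51.8 and 52.0 CPM in WT libraries. Its groups did overlap, since FCSPG library 30 was below 3 of the WT libraries. Mrps21, whose promoter is printed above, had 79.4, 66.5, 54.7 and 48.3 CPM in FCSPG, against 47.8, 49.0, 39.5 and 51.7 CPM in WT libraries. FCSPG library 32 lay within the WT range there. Mrps26, the third gene with a printed promoter, averaged 64.7 ± 12.0 CPM in FCSPG and 48.2 ± 5.44 CPM in WT libraries (log2 fold change 0.42 ± 0.17). Its groups overlapped too, since FCSPG library 30 (52.4 CPM) was below WT library 25 (54.9 CPM).

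Of the remaining members named for their small p, Mrpl40 and the small subunit proteins Mrps16 and Mrps24 had log2 fold changes of 0.34 ± 0.13, 0.36 ± 0.13 and 0.46 ± 0.18 in FCSPG against WT. Mrps36, which by name is a member but is known as a subunit of the 2-oxoglutarate dehydrogenase complex and not as a ribosomal protein, stood at 0.45 ± 0.17. The 5 genes that were lower in FCSPG were near 0: Mrpl30 at -0.04 ± 0.13, Mrpl39 at -0.02 ± 0.09, Mrps31 at -0.14 ± 0.11, Mrps22 at -0.10 ± 0.12 and Mrps27 at -0.02 ± 0.11. For Mrps31 the libraries had 35.2, 36.4, 31.4 and 35.9 CPM in FCSPG, against 36.6, 40.8, 34.0 and 41.4 CPM in WT. The groups overlapped through WT library 26 only.

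Much of the difference rested on FCSPG library 13. The median over the members of log2 CPM minus the WT mean of the gene was 0.50 in library 13, 0.26 in library 27, 0.04 in library 30 and 0.11 in library 32, against 0.007, 0.11, -0.14 and 0.01 in WT libraries 24, 25, 26 and 33. Library 13 had the highest value of all 11 libraries for 60 of the 77 members, while FCSPG libraries 30 and 32 lay within or close to the range of the WT medians. Without library 13 the median log2 fold change was 0.13, against -0.009 over all tested genes, and 62 of 77 members were higher. At an unadjusted p under 0.05, 3 members (3.9%) were then higher, close to the 2.24% of all tested genes. Mrpl34 then had a log2 fold change of 0.33, Mrps21 of 0.26 and Mrps36 of 0.28.

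**Figure D2:**
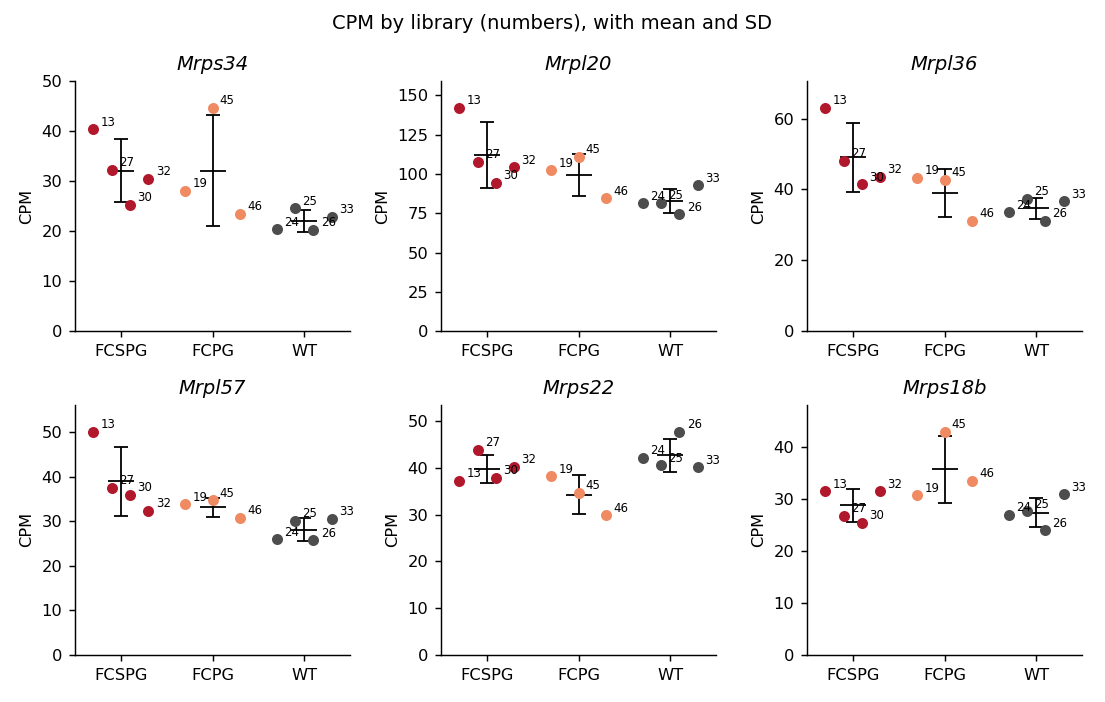
CPM of 6 members in each library (points, labelled with the library number), with the mean and SD of the 4 FCSPG, 3 FCPG and 4 WT libraries. In Mrps34, Mrpl20, Mrpl36 and Mrpl57 all FCSPG points are above all WT points, in Mrps22 all FCPG points are below all WT points, and in Mrps34 and Mrps18b FCPG library 45 is the highest of the 11.

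In FCPG against WT the family as a whole sat near 0. The median log2 fold change was 0.04 (1.03-fold), against 0.002 over all tested genes, with 47 members (61.0%) higher and 30 lower in FCPG, where 50.2% of all tested genes were higher. No member passed the test by edgeR (0% of all tested genes did, and the smallest adjusted p of a member was 0.18), by DESeq2 or by limma-voom, although DESeq2 called 8.91% of all tested genes in this comparison. At an unadjusted p under 0.05, 2 members (2.60%) were higher, Mrps34 and Mrps18b, and 1 (1.30%) lower, Mrps22, against 13% and 8.88% of all tested genes. The groups did not overlap in 1 member that was higher, Mrpl57 (1.30%, against 7.57% of all tested genes), and in 2 that were lower, Mrps22 and Mrps6 (2.60%, against 6.98%).

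Mrps22, a mitochondria-specific protein of the small subunit (chromosome 9, 98470783 to 98483713, mm39), had 38.2, 34.7 and 29.8 CPM in FCPG, against 42.2, 40.6, 47.8 and 40.1 CPM in WT libraries. All 3 FCPG libraries lay under the lowest WT library, and the log2 fold change was -0.32 ± 0.13 (edgeR adjusted p = 0.18), and -0.33 without library 45. Mrps34 had 28.1, 44.7 and 23.5 CPM in FCPG, against 20.3, 24.6, 20.3 and 22.9 CPM in WT libraries (log2 fold change 0.54 ± 0.22, edgeR adjusted p = 0.19). FCPG library 45 was far above the other FCPG libraries, of which number 46 lay within the WT range, and without library 45 the log2 fold change was 0.22. Mrps18b, also of the small subunit, was likewise highest in library 45, with 30.8, 43.1 and 33.6 CPM in FCPG, against 27.0, 27.7, 24.1 and 30.9 CPM in WT libraries. Its log2 fold change was 0.38 ± 0.15 (edgeR adjusted p = 0.183), and 0.22 without library 45. Mrps26 and Mrpl15 had log2 fold changes of 0.33 ± 0.18 and 0.26 ± 0.15, and of 0.10 and 0.12 without that library. Mrpl20 and Mrpl40, also higher in FCPG, stood at 0.27 ± 0.15 and 0.23 ± 0.14, and at 0.17 and 0.22 without it. Mrps6 had 18.8, 19.4 and 15.6 CPM in FCPG, against 21.5, 24.2, 21.2 and 21.3 CPM in WT libraries, a difference of -0.30 ± 0.18 on the log2 scale, and of -0.36 without library 45.

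The remaining members named for their small p were lower in FCPG. Mrpl33 had 20.8, 15.3 and 19.5 CPM in FCPG, against 24.1, 31.9, 22 and 18.5 CPM in WT libraries (log2 fold change -0.38 ± 0.21), and the groups overlapped through WT library 33. Without library 45 its log2 fold change was -0.27. Mrpl30 stood at -0.31 ± 0.15, Mrps18c at -0.29 ± 0.15 and Mrpl45, which ties the ribosome to the inner membrane near the exit tunnel, at -0.23 ± 0.15, and these 3 stood at -0.32, -0.30 and -0.22 without library 45. Between the FCPG libraries the members were uneven. The median deviation from the WT mean was 0.12 in library 19, 0.13 in library 45 and -0.15 in library 46, and library 46 was the lowest of all 11 for 37 of the 77 members. Without library 45 the median log2 fold change was -0.03 with 35 members higher, without library 19 it was -0.03 with 32 higher, and without library 46 it was 0.11 with 57 higher, so its sign depended on single libraries.

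FCSPG libraries were set directly against FCPG libraries in the third comparison. Here 69 members (89.6%) were higher in FCSPG, against 49.2% of all tested genes, with a median log2 fold change of 0.19 (1.14-fold), against -0.008. No member passed the test by edgeR (0% of all tested genes, smallest adjusted p of a member 0.435), by DESeq2 (0.00603% of all tested genes) or by limma-voom. At an unadjusted p under 0.05, 7 members (9.09%) were higher and 0 lower in FCSPG, against 4.77% and 6.67% of all tested genes. The groups were apart in 1 member, Mrps18c, which was higher (1.30%, against 2.34% of all tested genes), and in 0 that were lower (2.33%).

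Mrpl11, which lies at the base of the stalk where translation factors bind (chromosome 19, 5012175 to 5017027, mm39), had 161, 134, 117 and 111 CPM in FCSPG, against 118, 85.7 and 77.6 CPM in FCPG libraries. FCPG library 19 lay within the FCSPG range and the other FCPG libraries were below it (log2 fold change 0.48 ± 0.17, edgeR adjusted p = 0.435). Mrpl13 (chromosome 15, 55397490 to 55421144) had 134, 102, 86.8 and 86.4 CPM in FCSPG, against 99.7, 64.2 and 62.1 CPM in FCPG libraries, with library 19 again among the FCSPG libraries. When library 19 was left out, 6.24% of all tested genes had an adjusted p under 0.05 by edgeR, and 2 members (2.60%) did. These were Mrpl11 and Mrpl13, with log2 fold changes of 0.69 and 0.71. Without library 45 they stood at 0.42 and 0.33. Mrps33 averaged 44.2 ± 8.40 CPM in FCSPG (SD, n = 4) and 33.2 ± 5.21 CPM in FCPG libraries (n = 3), and Mrps9 averaged 78.2 ± 8.55 CPM in FCSPG and 64.2 ± 4.56 CPM in FCPG libraries. Mrps21, Mrpl45 and Mrpl21 had log2 fold changes of 0.40 ± 0.18, 0.34 ± 0.15 and 0.31 ± 0.13. Without library 45 the log2 fold changes were 0.39 for Mrps33, 0.25 for Mrps9, 0.37 for Mrps21, 0.32 for Mrpl45 and 0.27 for Mrpl21. Mrps18c had 32.3, 25.9, 26 and 29.8 CPM in FCSPG, against 25.5, 22.9 and 19.4 CPM in FCPG libraries, a narrow separation (log2 fold change 0.33 ± 0.15, and 0.34 without library 45). Leaving out FCSPG library 13 brought the family's median log2 fold change to 0.09 with 58 members higher, leaving out FCPG library 46 brought it to 0.09 with 60 higher, and leaving out FCPG library 45 brought it to 0.24 with 74 higher.

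**Figure D3:**
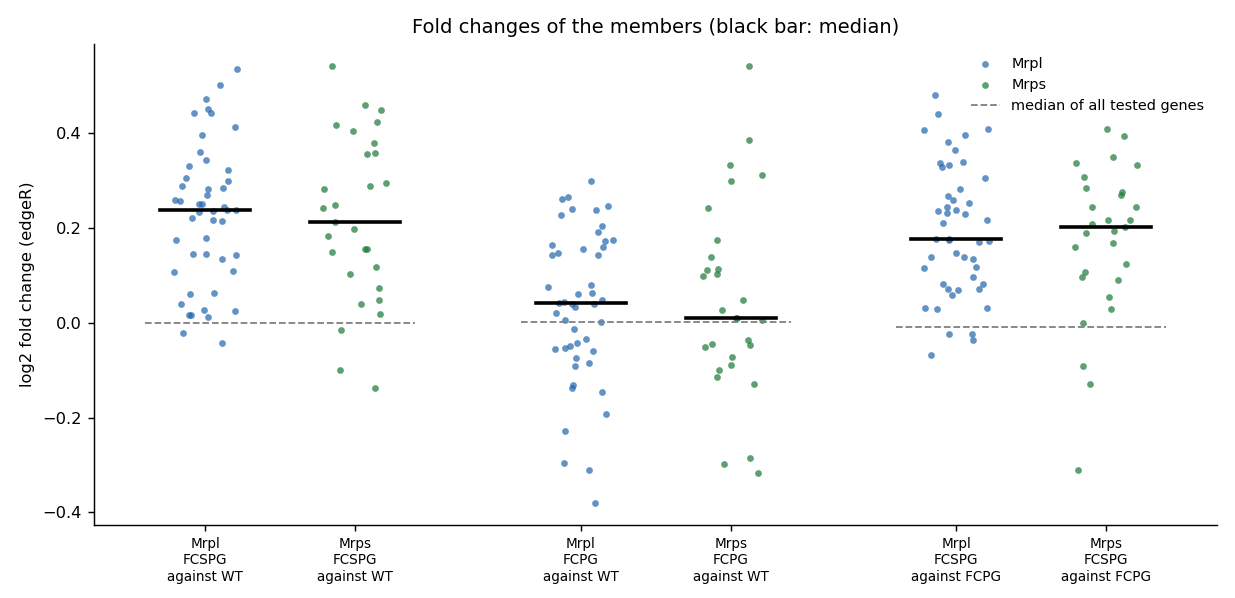
Log2 fold changes (edgeR) of the 48 Mrpl and 29 Mrps genes in FCSPG against WT, FCPG against WT and FCSPG against FCPG, 1 point a gene, with the median of each set as a black bar and that of all tested genes as a dashed line. Most points are above 0 in FCSPG against WT (medians 0.24 and 0.21) and FCSPG against FCPG (0.18 and 0.20), and points lie on both sides of 0 in FCPG against WT (0.04 and 0.01); comparisons with a group in common share its libraries.

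Large and small subunit genes differed little from each other in any comparison. In FCSPG against WT the median log2 fold change was 0.24 over the 48 Mrpl genes, 46 of them higher, and 0.21 over the 29 Mrps genes, 26 of them higher. In FCPG against WT it was 0.04 and 0.01, with 30 Mrpl and 17 Mrps genes higher in FCPG. In FCSPG against FCPG it was 0.18 and 0.20, with 44 and 25 genes higher in FCSPG. Without FCPG library 45 the Mrpl and Mrps medians were -0.03 and -0.02 in FCPG against WT and 0.26 and 0.24 in FCSPG against FCPG. The ratio of summed Mrpl to summed Mrps level, both in FPKM, was 2.39, 2.35, 2.33 and 2.45 in FCSPG, 2.42, 2.32 and 2.32 in FCPG and 2.37, 2.36, 2.39 and 2.30 in WT libraries. The ranges of the 3 groups overlapped in part, with the highest ratio in FCSPG library 32 and the lowest in WT library 33, and with means of 2.38 ± 0.0528 in FCSPG (SD, n = 4), 2.35 ± 0.0558 in FCPG (n = 3) and 2.35 ± 0.04 in WT libraries (n = 4). Both sums were highest in FCSPG library 13, with 2059 Mrpl and 862 Mrps FPKM, where WT libraries had 1265 to 1485 Mrpl and 530 to 629 Mrps FPKM, and its ratio was still within the range of the others.

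**Figure D4:**
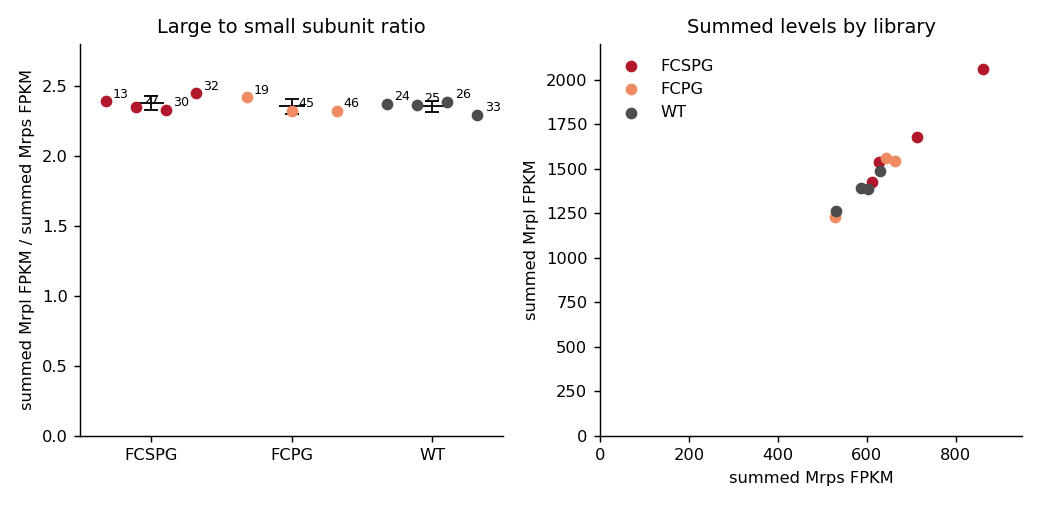
Left, ratio of summed Mrpl FPKM to summed Mrps FPKM in each library (points, labelled with the library number) with the mean and SD of each group; right, summed Mrpl against summed Mrps FPKM by library. Ratios lie between 2.30 and 2.45 in all 11 libraries, and in the right panel FCSPG library 13 has the highest of both sums.

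The paralogues of bacterial S18 sit in different subunits in ribosome structures, and no difference between them was tested here. Mrps18a, which structures place in the large subunit despite its name, had 64.9, 44.3, 43.0 and 43.6 CPM in FCSPG, 40.8, 76.1 and 43.7 CPM in FCPG and 48.8, 44.2, 37.5 and 41.9 CPM in WT libraries. It was highest in FCPG library 45 and FCSPG library 13, and the other libraries lay between 37.5 and 48.8 CPM. Mrps18b was highest in FCPG library 45 too. Mrps18c, the paralogue closest to the bacterial protein, was among the 37 members that were lowest in FCPG library 46. Mrps30, also of the large subunit in structures, averaged 49.7 ± 7.02 CPM in FCSPG, 42.0 ± 4.52 CPM in FCPG and 44.7 ± 1.78 CPM in WT libraries. With subunits assigned by structure the medians in FCSPG against WT were 0.24 over 50 large and 0.23 over 26 small subunit genes. Members were also classed by origin, and Mrps18a and Mrps18b were put in the mitochondria-specific class although they are paralogues of S18. The 46 members classed with a bacterial relative and the 30 classed as mitochondria-specific had medians of 0.24 and 0.23 in FCSPG against WT. In FCPG against WT the medians of these classes were 0.03 and 0.04, and in FCSPG against FCPG 0.21 and 0.15.

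Mitochondrial ribosomal protein genes are short, with a median deposited length of 2394 bases against 3982.5 over all tested genes, and gene length moved with the FCSPG to WT difference across all genes. With all tested genes split by length into 4 classes of about equal number, in the class of shortest genes (57 to 2297 bases) the median log2 fold change in FCSPG against WT was 0.28 over the 38 members and 0.14 over all genes. In the next classes it was 0.16 over 16 members and 0.06 over all genes, then 0.18 over 11 members and -0.03 over all genes. In the class of longest genes (6381 to 123179 bases) it was 0.18 over the 12 members, each of which was higher in FCSPG, and -0.12 over all genes. Deposited lengths need not be mRNA lengths. That of Mrpl32, 4982 bases, is the whole span of its gene, positions 14782769 to 14787750 of chromosome 13. Members in the longer classes may therefore have shorter mRNAs, and classes by mRNA length were not made. In FCSPG against FCPG the medians by class, from short to long, were 0.20, 0.17, 0.22 and 0.20 over the members and 0.18, 0.03, -0.06 and -0.14 over all genes, so that in the class of shortest genes the members stood close to all genes. In FCPG against WT they lay between -0.02 and 0.07 over the members and between -0.02 and 0.02 over all genes. By library, the median deviation of the shortest minus that of the longest class was 0.52, 0.32, 0.18 and 0.08 in FCSPG libraries 13, 27, 30 and 32, and 0.13, -0.06 and -0.16 in FCPG libraries 19, 45 and 46. It was 0.08, 0.24, -0.26 and -0.03 in WT libraries 24, 25, 26 and 33. The libraries that were highest and lowest for the members, FCSPG 13, FCPG 46 and WT 26, were also at the ends of this measure, and its part in the family's difference was not tested.

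**Figure D5:**
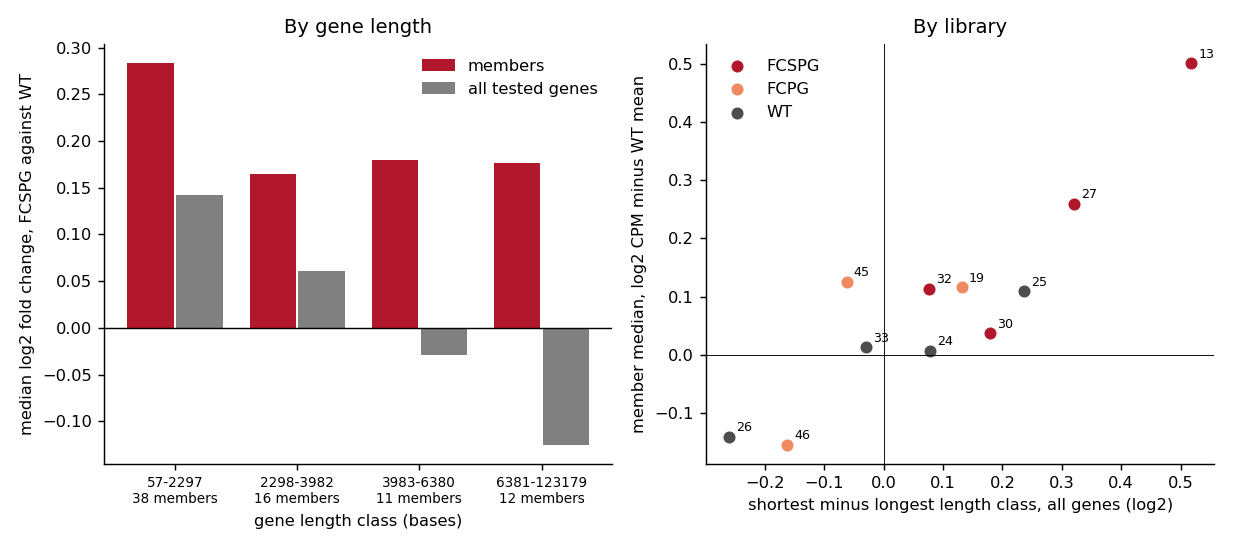
Left, median log2 fold change in FCSPG against WT of the members and of all tested genes in 4 classes of deposited gene length, which need not be mRNA length. Right, by library, the members' median log2 CPM minus the WT mean against the same quantity for the shortest minus the longest class of all genes. Bars of the members stay between 0.16 and 0.28 while those of all genes run from 0.14 to -0.12 with length, and FCSPG library 13 is at the upper right with 0.52 and 0.50.

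Visceral endoderm markers moved with the mutant groups as well. Their mean log2 CPM was 4.38 to 6.81 in FCSPG, 5.70 to 8.83 in FCPG and 0.63 to 5.12 in WT libraries, so that FCPG and WT libraries did not overlap, and of the 20 markers none was at 0 in all libraries of a group. With that score as a covariate the members' median log2 fold change was 0.12 in FCSPG against WT, with 64 higher and 0 higher at an unadjusted p under 0.05, where 0.597% of all tested genes were higher at that p with the covariate and 6.24% without it. It was -0.11 in FCPG against WT, with 7 higher, and 0.24 in FCSPG against FCPG, with 75 higher. In FCSPG against WT, Mrps34 stood at 0.22 with the covariate, and Mrpl2, Mrpl20, Mrpl40, Mrps24 and Mrps36 at 0.23, 0.24, 0.18, 0.24 and 0.19. In FCPG against WT, Mrps34 stood at 0.06, Mrps22 at -0.17, Mrpl30 at -0.18 and Mrpl33 at -0.15. Libraries from male embryos, by their Y-linked counts, were FCSPG 32, FCPG 19 and FCPG 45, and with sex as a covariate the 3 medians were 0.21, -0.02 and 0.22.

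The other parts of the mitochondrial translation machinery gave smaller medians than the ribosomal protein genes in FCSPG against WT, and no gene of these lists passed edgeR's adjusted threshold in any comparison. Of 5 ribosomal proteins of the organelle with other names, 4 were higher in FCSPG, with a median log2 fold change of 0.08. Among them Aurkaip1 stood at 0.35 ± 0.14, Chchd1 at 0.29 ± 0.17 and Ptcd3 at -0.07 ± 0.08. Aurkaip1 and Chchd1 were highest in FCSPG library 13, with 141 and 121 CPM. For Aurkaip1, FCSPG libraries 30 and 32 (94.9 and 94.6 CPM) were below WT library 25 (97.0 CPM). For Chchd1, FCSPG library 32 (83.5 CPM) was below WT library 24 (92.3 CPM). Of 18 translation factors, 14 were higher in FCSPG than in WT (median 0.07), led by Mpv17l2, which takes part in ribosome assembly at the inner membrane, at 0.67 ± 0.21. Its level was also 0.67 ± 0.22 higher on the log2 scale in FCPG than in WT libraries, with 16.4, 13.1, 11.6 and 13.9 CPM in FCSPG, 12.2, 18.1 and 11.1 CPM in FCPG and 8.30, 10.3, 6.73 and 9.36 CPM in WT libraries, so both mutant groups lay above the WT range. Without FCPG library 45 its log2 fold change in FCPG against WT was 0.42, and with the visceral endoderm covariate it was 0.30 in FCSPG and 0.11 in FCPG against WT. Of 25 assembly factors 17 were higher in FCSPG than in WT (median 0.08), and of 20 mitochondrial aminoacyl-tRNA synthetases and related enzymes 14 were (median 0.05), with Lars2, the leucine enzyme, at 0.53 ± 0.18. In FCPG against WT the medians of these 4 lists were -0.04, -0.02, 0.02 and 0.16, and without library 45 they were -0.05, -0.03, -0.03 and 0.09.

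The mRNAs made from the mitochondrial genome itself had negative medians in both mutant groups, and no gene among them passed the test. Of 12 tested mitochondrially encoded mRNAs, 4 were higher in FCSPG than in WT (median log2 fold change -0.07) and 1 was higher in FCPG than in WT (median -0.40, and -0.55 without library 45). Their summed level was 8577 to 12285 CPM in FCSPG, 5355 to 9226 CPM in FCPG and 8580 to 14997 CPM in WT libraries, with overlap between all groups. mt-Co1, the core subunit of cytochrome oxidase, stood at -0.53 ± 0.25 on the log2 scale in FCPG against WT (edgeR adjusted p = 0.24), and at -0.68 without library 45. In WT libraries it averaged 4370 ± 1351 CPM, where mt-Atp6 averaged 10.6 ± 3.97 CPM. Whether reads of the mRNAs with low counts went unassigned was not tested, and the median over the list weights each mRNA alike. The rRNAs of the organelle carry at most short A tails, and among these polyA libraries mt-Rnr1, the small subunit rRNA, averaged 177 ± 54.7 CPM in FCSPG, 105 ± 22.6 CPM in FCPG and 163 ± 58.3 CPM in WT libraries. The 2 rRNAs had a median log2 fold change of 0.06 in FCSPG against WT, with both higher, and of -0.51 in FCPG against WT, with both lower (-0.45 without library 45).

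Genes that act on mitochondrial biogenesis and on the organelle's DNA had larger single differences than the ribosomal proteins. Esrra, the nuclear receptor that works with PGC-1 coactivators, had 43.3, 28.6, 22.6 and 34.3 CPM in FCSPG, 28.1, 79.7 and 28.6 CPM in FCPG and 16.9, 18.2, 12.1 and 22.6 CPM in WT libraries. Its log2 fold change was 0.89 ± 0.35 in FCSPG against WT (edgeR adjusted p = 0.446) and 1.38 ± 0.37 in FCPG against WT (edgeR adjusted p = 0.109), with FCPG library 45 far above the rest. Without that library it was 0.70 in FCPG against WT, and with the visceral endoderm covariate it was 0.09 in FCSPG and 0.12 in FCPG against WT. Polg, the polymerase that copies mitochondrial DNA, had 339, 248, 183 and 325 CPM in FCSPG, 231, 588 and 637 CPM in FCPG and 183, 185, 139 and 274 CPM in WT libraries. FCPG libraries 45 and 46 were the highest, and the log2 fold change was 1.32 ± 0.34 in FCPG against WT (edgeR adjusted p = 0.104) and 0.49 ± 0.31 in FCSPG against WT. Without library 45 it was 1.15 in FCPG against WT, and with the covariate it was -0.19 in FCSPG and 0.31 in FCPG against WT. Other genes of these lists were lower in FCPG than in WT. Mycn stood at -0.52 ± 0.18 (edgeR adjusted p = 0.136) and Twnk at -0.29 ± 0.12 (edgeR adjusted p = 0.183), both with their lowest level in library 45. The list of 11 biogenesis regulators, which also holds Nrf1, Gabpa and Yy1, had a median of -0.08 in FCSPG against WT and 0.08 in FCPG against WT, and the 13 genes of mitochondrial DNA transcription and replication had medians of 0.05 and -0.03. Without library 45 the medians in FCPG against WT were 0.06 for the regulators and -0.12 for the other list.

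The authors' deposited tables, which list genes with an unadjusted p under 0.05, held 19 members for FCSPG against WT, 2 for FCPG against WT and 1 for FCSPG against FCPG, and in them 0 members had an adjusted p under 0.05. The shares of all genes listed there, or with an adjusted p under 0.05, were not computed. These counts therefore do not set the members apart from other genes. The smallest adjusted p of a member there was 0.0513, for Mrps34 in FCSPG against WT in the authors' deposited table, followed by 0.0628 for Mrpl36.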

How the data were processed

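Transcripts were measured by polyA RNA sequencing in 11 libraries. Per the submitters' processing notes, which give no versions and no strand setting, the authors used HISAT2, build mm39 and featureCounts to obtain counts. The deposited counts are whole numbers for 56748 genes, with 16014698 to 25453070 counts a library, and the deposited FPKM values divide by gene length and library size, per the file headers. The authors' tables of log2 fold changes, p-values and adjusted p-values are from DESeq2 according to the same notes, and were turned here to FCSPG or FCPG over WT and to FCSPG over FCPG. Columns were assigned by the genotype they name, and 0 remained unassigned.

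Here, edgeR 4.0.16 (R 4.3.3) was fitted to the counts of all 11 libraries, with TMM scaling and the quasi-likelihood F test, two-sided, on the 16572 genes kept by filterByExpr. Benjamini-Hochberg adjustment covered all of them, and calls needed an adjusted p under 0.05. Log2 CPM used a prior count of 2. The fit was tested on simulated data. The limit given for a count of 0 is 3 counts and covers counting error only. Alternatives were DESeq2 1.42.0, its size factors in edgeR, limma-voom (limma 3.58.1), no filter, 1 CPM in 3 libraries, the 2 groups compared alone, visceral endoderm score or embryo sex as covariates, and each library left out. For the subunit ratio they were TPM, subunits by structure and the median member.

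Genes named are up to 6 a subunit and comparison with the smallest p, the 3 highest and 3 lowest a subunit by FPKM, the 3 most variable in WT, up to 3 a subunit against the majority direction, up to 3 of each of 13 lists of 173 genes with the smallest p, the Mrps18 paralogues, Mrps30 and Fgfr1. Mrpl46, Mrpl52 and Mrpl53, and FCSPG or FCPG values of genes named for another comparison, were singled out after their values were seen. Of the listed genes, 2 were not found. The members, lists and rules were chosen with earlier results of these data known. Promoters came from a RefSeq table of build GRCm38.p6, which differs from mm39, so its coordinates were used for the sequences alone.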

Additional observations from a re-analysis of the deposited data

Results flagged for a closer look

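In 92 groups of 4 libraries, single libraries were compared with the rest of their group by the gap to the nearest value over the range, at Dixon's 95% critical value, which chance passes in about 1 of 20 groups, and 2 passed. Mrps18a had 64.9 CPM in FCSPG library 13, against 43.0 to 44.3 CPM in the other 3 FCSPG libraries. Mrps6 had 24.2 CPM in WT library 25, against 21.2 to 21.5 CPM in the other 3 WT libraries. The FCPG group, with 3 libraries, was not assessed this way.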

How the results depend on the processing

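No paired analysis was possible because the columns carry no replicate numbers that match those in the sample titles. The number of members with an adjusted p under 0.05 was 0 in all 3 comparisons under edgeR, DESeq2, limma-voom, both filters, DESeq2 size factors, both covariates and the 2 groups alone. Of all tested genes, DESeq2 called 8.91% in FCPG against WT, 0.247% in FCSPG against WT and 0.00603% in FCSPG against FCPG. In FCPG against WT, 1.32% of all tested genes were called with no filter and 16.1% without FCPG library 19, with 0 members in either. In FCSPG against FCPG the number of members was 0 to 2 when 1 library was left out. The 2 were Mrpl11 and Mrpl13 without FCPG library 19, where 6.24% of all tested genes were called. With a covariate for visceral endoderm markers, 7 members were higher in FCPG than in WT, and Mrpl15 (-0.13), Mrpl20 (-0.0291), Mrpl40 (-0.00821), Mrps18b (-0.0300) and Mrps26 (-0.13) turned negative on the log2 scale in FCPG against WT. The cause was not tested. The log2 ratio of Mrpl to Mrps, taken from the median members in place of the sums, differed by -0.0854 for FCPG minus WT and by -0.0426 for FCSPG minus WT. By library this ratio was 0.84, 0.43 and 0.85 in FCPG libraries 19, 45 and 46, against 0.72 to 0.92 in WT libraries. Among the FCPG libraries only library 45 lay below the WT range. The median log2 fold change of Mrpl minus that of Mrps genes in FCSPG against WT was -0.0382 to 0.0510 with 1 library left out.

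In FCSPG against WT the median over the members was 0.13 to 0.30 with 1 library left out and 0.12 to 0.24 under the other alternatives. The 17 members (22.1%) higher at an unadjusted p under 0.05 there, against 6.24% of all tested genes, became 3 (3.9%, against 2.24%) without FCSPG library 13, 10 (13%, against 4.81%) without FCSPG library 27, 30 (39%, against 8.52%) without FCSPG library 30, 8 (10.4%, against 3.15%) without WT library 24 and 7 (9.09%, against 2.85%) without WT library 26. In FCPG against WT the median was -0.03 to 0.11 with 1 library left out, and below 0 without FCPG library 19, FCPG library 45 or WT library 26. In FCSPG against FCPG it was 0.09 to 0.25 with 1 library left out. The 7 members (9.09%) higher at an unadjusted p under 0.05 there, against 4.77% of all tested genes, became 17 (22.1%, against 13.9%) without FCPG library 19, 2 (2.60%, against 1.95%) without FCPG library 45 and 0 (against 2.46%) without FCPG library 46. They became 1 (1.30%, against 3.16%), 3 (3.9%, against 2.59%), 12 (15.6%, against 3.34%) and 16 (20.8%, against 6.52%) without FCSPG libraries 13, 27, 30 and 32, and 4 (5.19%, against 3.57%) without WT library 24. The limit given for Mrpl53 covers counting error only.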
